A study of Mus musculus with 20 samples.

Results

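The genes described here belong to the cytotoxic and innate lymphoid programme: Gzmb, Gzma, Prf1, Nkg7, Klrd1, Id2, Tbx21, Eomes and Il2rb. These 9 genes were taken by symbol from the 49997 genes of the count tables of mouse bone marrow cells, and all 9 were found. The libraries were poly(A) RNA-seq of primary cells in culture, sorted as immunophenotypic hematopoietic stem cells (HSC; CD201+CD150+cKit+Sca1+Lineage-) or as hematopoietic progenitor cells (HPC; CD201-CD150-cKit+Sca1+Lineage-). Each sort was made from Runx2 WT, Runx2 heterozygous KO (het) and Runx2 homozygous KO (hom) cells, with 3 libraries in each of the 6 groups. The series mentions floxed mice and CRISPR knockout for its HSC, and the sources used here give neither the means of knockout for each library nor the age of the mice. They also do not say whether the 3 libraries of a group came from separate mice or cultures, and the p-values therefore describe spread among libraries that could be technical repeats.

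Cytotoxic lymphocytes kill by releasing granules that hold perforin, which opens the target membrane, and granzymes, serine proteases that enter through it. In natural killer (NK) cells and other innate lymphoid cells, this programme is tied to the transcription factors T-bet (Tbx21), Eomes and Id2, to the lectin-like receptor chain CD94 (Klrd1) and to the beta chain shared by the interleukin-2 and interleukin-15 receptors (Il2rb). Granzyme genes can also be active outside lymphocytes, and RUNX proteins, a family of DNA-binding factors that includes Runx2, regulate many blood cell genes.

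Runx2, the targeted gene, was lower in both knockout genotypes and both sorts. It averaged 126 ± 3.87 CPM (the counts-per-million scale, with TMM factors; SD, n = 3) in HPC WT, 104 ± 4.40 in HPC het and 23.5 ± 1.10 in HPC hom, that is 82.7% and 18.7% of WT in the fit. In HSC it averaged 122 ± 3.50 CPM in WT, 85.1 ± 3.90 in het (70.1% of WT) and 26.0 ± 1.74 in hom (21.7% of WT). Library totals ran from 16663497 to 27061457 counts, so that 3 counts, the limit that a count of 0 allows, correspond to 0.103 to 0.192 CPM. Of the sort markers, Procr (CD201) lay at 39.9 to 53.6 CPM in HSC WT against 5.17 to 6.28 in HPC WT, Kit lay between 411.9 and 599 CPM over all 18 libraries, and Ly6a (Sca1) had 0 counts in all 18 libraries although the cells were sorted for its protein, so that a count of 0 in these tables need not bound expression. All 9 HSC libraries carried the Y-linked Ddx3y at 112.5 to 157.2 CPM, and all 9 HPC libraries had 0 counts of it, so that a difference between HSC and HPC cannot be told apart from a difference in the sex of the cells.

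The members split into genes with a clear level and genes at the edge of detection. Levels between genes are compared per exonic length, on the transcripts-per-million scale (TPM). In HPC WT, Gzmb stood at 296 ± 7.77 TPM (SD, n = 3) and Nkg7 at 287 ± 6.90 TPM, with overlapping ranges (287.2 to 302.5 and 280.1 to 293.9). Only 2.07% of the genes with any count there had a higher mean TPM than Gzmb. Id2 followed at 19.5 ± 2.52 TPM and Klrd1 at 16.0 ± 0.913 TPM, again with overlapping ranges. Below a wide gap came Il2rb at 0.206 ± 0.107 TPM, Prf1 at 0.122 ± 0.0685, Eomes at 0.0563 ± 0.0708 and Tbx21 at 0.0312 ± 0.0540, and the ranges of neighbours in this order overlapped. Gzma, a granzyme of NK and T cells, had 0 counts in all 18 libraries, as Ly6a did.

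In HSC WT the order was different: Nkg7 led at 97.0 ± 9.62 TPM, Id2 followed at 46.9 ± 13.8 TPM and Gzmb came next at 7.01 ± 2.60 TPM, with no overlap between these neighbours. Klrd1 lay at 0.78 ± 0.447 TPM and Il2rb at 0.0985 ± 0.0641 TPM. The remaining genes had at most 3 counts in any HSC library.

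**Figure D1:**
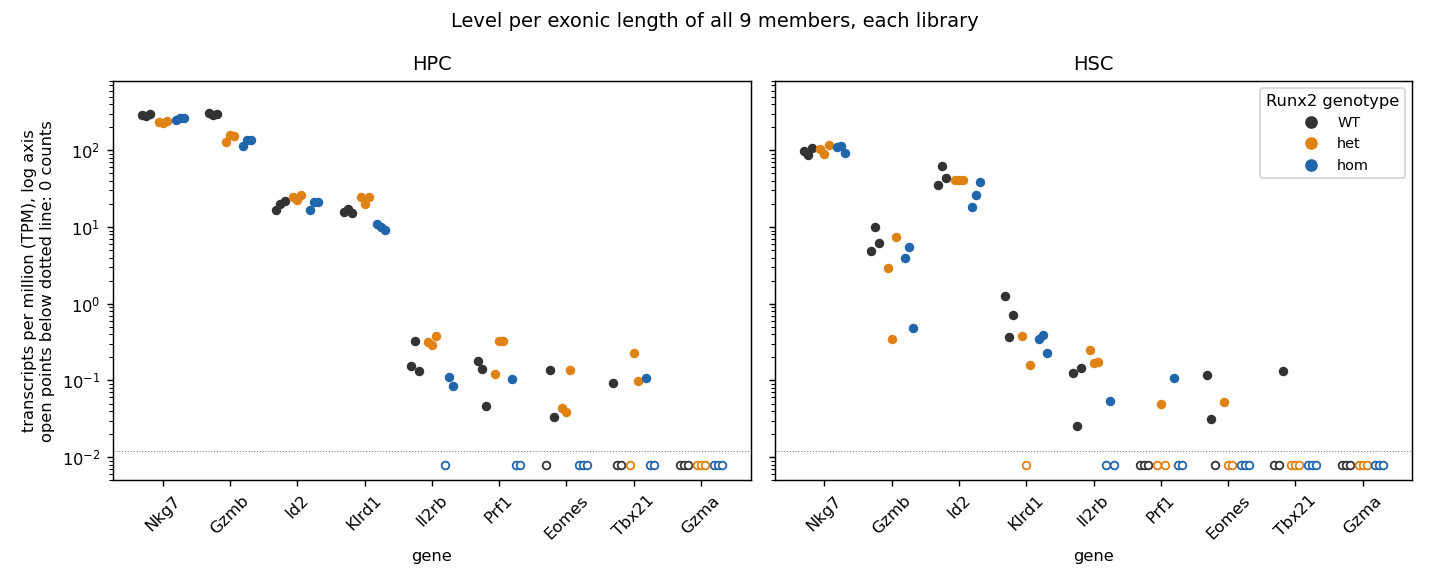
TPM (log axis) of each of the 9 members in each HPC library (left) and HSC library (right), coloured by Runx2 genotype; open points under the dotted line are libraries with 0 counts. Nkg7 and Gzmb lie together near 290 TPM in HPC WT, 4 members stand above 5 TPM in HPC, and Gzma is at 0 in all 18 libraries.

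RefSeq promoter windows (build GRCm38.p6, from 250 bases before to 50 bases after the gene start) were given for 7 of the 9 members, all but Klrd1 and Il2rb. They were searched on both strands for the RUNX core letters TGTGGT and TGCGGT. At least 1 match stood in 22.4% of 32851 promoters of the same length, and at least 2 matches in 2.86%. The windows of Gzmb and Nkg7, granule genes that were called in HPC, and of Id2, which was not, are shown, read 5′ to 3′ on the strand of the gene, with RUNX letters in capitals (ACCACA is TGTGGT on the other strand).
Gzmb: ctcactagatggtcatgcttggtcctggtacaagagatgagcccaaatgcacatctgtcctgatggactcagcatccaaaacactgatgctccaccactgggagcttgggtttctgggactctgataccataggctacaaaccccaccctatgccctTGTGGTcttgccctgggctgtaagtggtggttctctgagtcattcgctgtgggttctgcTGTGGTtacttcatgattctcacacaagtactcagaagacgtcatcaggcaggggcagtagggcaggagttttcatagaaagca
Nkg7: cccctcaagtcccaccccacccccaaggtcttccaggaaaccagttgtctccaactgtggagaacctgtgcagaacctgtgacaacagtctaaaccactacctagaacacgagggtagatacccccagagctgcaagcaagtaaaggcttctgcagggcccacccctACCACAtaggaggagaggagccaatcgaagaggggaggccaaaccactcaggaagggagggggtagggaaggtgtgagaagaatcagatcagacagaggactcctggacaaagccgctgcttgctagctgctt
Id2: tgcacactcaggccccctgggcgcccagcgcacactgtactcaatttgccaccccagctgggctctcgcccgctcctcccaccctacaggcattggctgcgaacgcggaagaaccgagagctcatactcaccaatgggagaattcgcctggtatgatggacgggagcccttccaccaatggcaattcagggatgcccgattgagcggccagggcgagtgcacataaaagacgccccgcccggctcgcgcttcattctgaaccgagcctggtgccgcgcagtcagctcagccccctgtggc
The Gzmb window (chr14:56262285-56262584, minus strand) held 2 matches, from 93 to 88 and from 34 to 29 bases upstream of the start. The Nkg7 window (chr7:43436888-43437187, plus strand) held 1, from 83 to 78 bases upstream, and also the T-box letters GGTGTGA from 13 to 7 bases upstream, found in 3.98% of promoters. The Id2 window (chr12:25096043-25096342, minus strand) held none, and neither did those of Tbx21 and Eomes. Gzma and Prf1 each held 1 match, in genes at 0 or within a few counts of it. A match describes the letters and was not tested as a binding site.

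In HPC, Gzmb, which encodes granzyme B, fell to about the same level in both knockout genotypes. Its WT libraries held 190.4, 171.4 and 170.8 CPM, its het libraries 76.45, 96.16 and 96.75 CPM, and its hom libraries 70.38, 84.27 and 81.41 CPM. Every knockout library lay below every WT library, while het and hom overlapped. The log2 fold change was -1.17 ± 0.085 (SE) in hom against WT (44.5% of WT; edgeR quasi-likelihood test, Benjamini-Hochberg adjusted p = 8.22e-08) and -0.98 ± 0.084 in het against WT (50.7% of WT; adjusted p = 5.04e-07). These comparisons share the WT libraries. The difference of hom against het was -0.19 ± 0.086, with a 95% interval from -0.37 to -0.0065, and was not called (adjusted p = 0.193), except when the first het library was left out (-0.29, adjusted p = 0.0374). Gzmb spans chr14:56258836-56262334 in the files' mm10 annotation, and the counts are sums over its exons. In bulk libraries such as these, fewer cells with a transcript and less transcript per cell cannot be told apart.

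Nkg7 encodes a granule membrane protein of cytotoxic cells. It moved little in HPC: 97.02, 89.90 and 90.82 CPM in WT, 74.21, 75.28 and 82.35 in het, and 82.71, 88.29 and 82.47 in hom. Both knockout groups lay below the range of WT. The log2 change passed the test in het (-0.26 ± 0.061, 83.6% of WT, adjusted p = 0.00685) and did not in hom (-0.13 ± 0.060, adjusted p = 0.23), and hom against het gave 0.13 ± 0.061 (adjusted p = 0.205). Per length, Gzmb and Nkg7 overlapped in WT, whereas in het Gzmb (128 to 157.8 TPM) lay below Nkg7 (229.7 to 243 TPM), and in hom it did so too (113.3 to 138.1 against 247.7 to 265.1 TPM). Prf1, the perforin gene, had 1 to 4 counts in the WT libraries, 2 to 7 in het and 0 to 2 in hom. These counts were too few for the test.

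**Figure D2:**
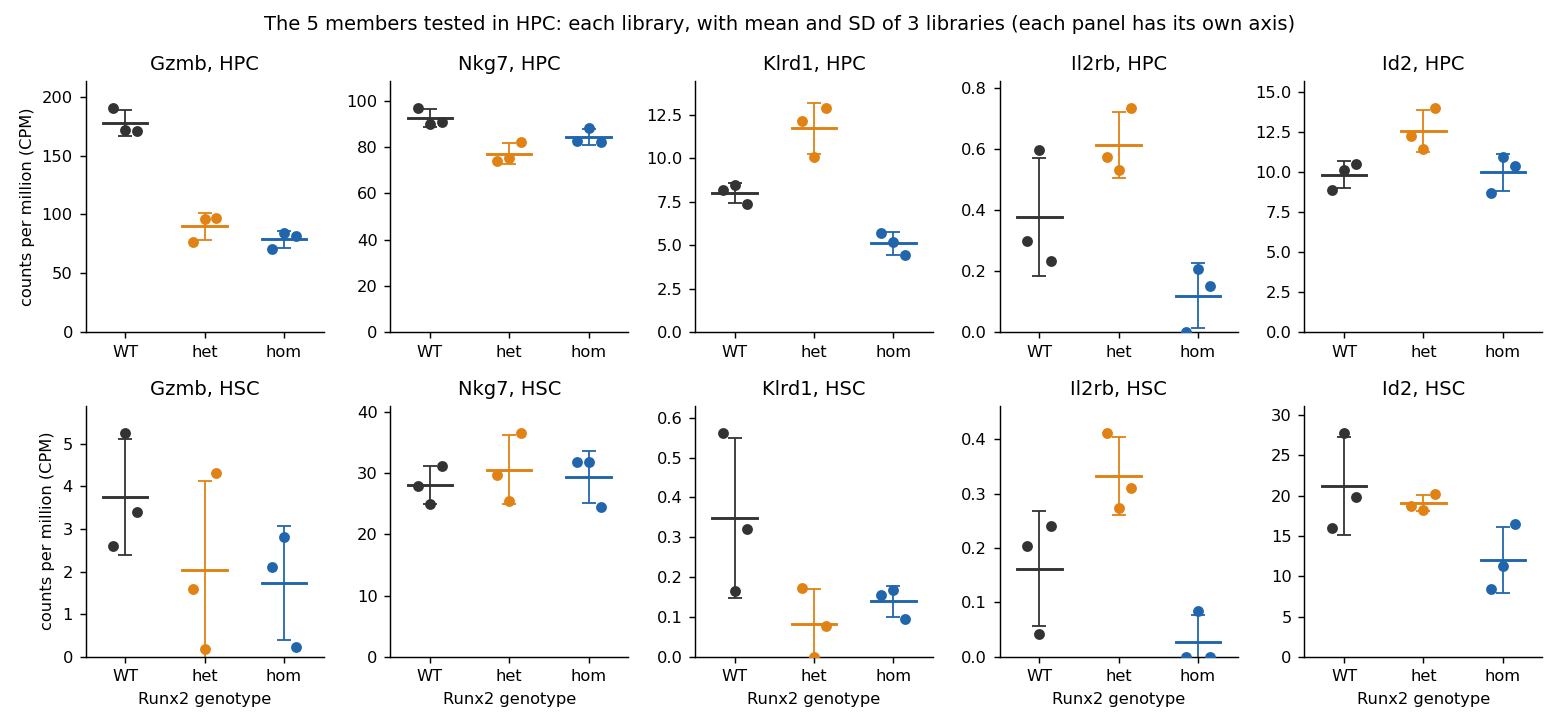
CPM of the 5 members tested in HPC, with HPC above and HSC below, by Runx2 genotype; points are libraries, and bars are the mean and SD of 3 libraries, with SD bars cut at 0. Gzmb in HPC falls from 170.8 to 190.4 CPM in WT to 70.38 to 96.75 CPM in the knockouts, Klrd1 in HPC is highest in het and lowest in hom, and Gzmb in HSC spreads from 0.18 to 5.26 CPM.

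Klrd1, the CD94 chain that pairs with NKG2 receptors, moved in opposite directions in the knockout genotypes of HPC. It stood at 8.15, 8.47 and 7.36 CPM in WT, at 12.13, 10.09 and 12.88 CPM in het and at 5.71, 5.16 and 4.43 CPM in hom. The 3 groups did not overlap. It rose in het (log2 0.55 ± 0.131, 147% of WT, adjusted p = 0.007) and fell in hom (-0.65 ± 0.142, 63.9% of WT, adjusted p = 0.00556), both against the same WT libraries. Hom against het gave the larger difference, -1.20 ± 0.139 (43.5% of het, adjusted p = 3.59e-05). Without the third het library, the rise in het no longer passed (0.47 ± 0.149, adjusted p = 0.05). Klrd1 spans chr6:129588092-129598775 (mm10).

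Il2rb had few counts but the same order of groups in HPC: 6, 12 and 5 counts in WT, 9, 9 and 14 in het, and 0, 4 and 3 in hom. Hom libraries lay below all others. Il2rb passed the low-count filter mainly through het, its highest group: the cutoff of 0.482 CPM in at least 3 libraries was reached by all 3 het libraries, 1 WT library and 0 hom libraries. Hom against het, the comparison with that same group, was called (log2 -2.26 ± 0.649, adjusted p = 0.0353; 0.0186 with no filter), and because of the way Il2rb passed, it is given as a description. Hom against WT (-1.55 ± 0.690, adjusted p = 0.195) and het against WT (0.71 ± 0.521, adjusted p = 0.404) were not called. The call in hom against het was lost when any 1 of the het libraries was left out (adjusted p = 0.0663, 0.0779 and 0.112) or hom replicate 1 or 3 was (0.103 and 0.0739). DESeq2 gave it no adjusted p, and it was not tested with a filter of at least 1 CPM in 3 libraries or in the fit of the compared groups alone. HSC held 4, 1 and 6 counts of Il2rb in WT, 12, 6 and 8 in het, and 0, 2 and 0 in hom, below the filter for testing.

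Id2, an inhibitor of E proteins that innate lymphoid cells need, was measured well in both sorts. In HPC it lay at 8.85, 10.12 and 10.46 CPM in WT, 12.20, 11.45 and 13.98 in het, and 8.68, 10.89 and 10.37 in hom. Het libraries lay above all the others, but neither het against WT (log2 0.36 ± 0.123, adjusted p = 0.0548; 0.0411, and called, with the replicate number as a block) nor hom against het (-0.33 ± 0.123, adjusted p = 0.106) passed, and hom against WT was 0.03 ± 0.124 with a 95% interval from -0.23 to 0.29 (adjusted p = 0.928). Tbx21 and Eomes, the T-box factors of NK cells, never exceeded 4 counts in any library of either sort.

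Counted over the members, 5 of 9 passed the filter on low counts in HPC: Gzmb, Nkg7, Klrd1, Il2rb and Id2. Of these, 2 fell in hom against WT and 3 were not called, while 9.21% of 13855 tested genes were called there (4.29% lower). In het against WT, 2 fell, 1 rose and 2 were not called, against 16.1% of tested genes called (6.99% lower, 9.15% higher). In hom against het, 2 fell (Klrd1 and Il2rb, the latter tested only because of its het counts) and 3 were not called, against 9.4% called (5.77% lower). The median log2 change over the tested members was -0.65 in hom against WT, 0.36 in het against WT and -0.33 in hom against het, beside medians over all tested genes of -0.00018, -0.0037 and 0.0031. Il2rb, which passed the filter mainly through het, counts in each member median, so these medians are given as descriptions only. Since 4 members were too low to test, these figures do not stand for all 9.

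**Figure D3:**
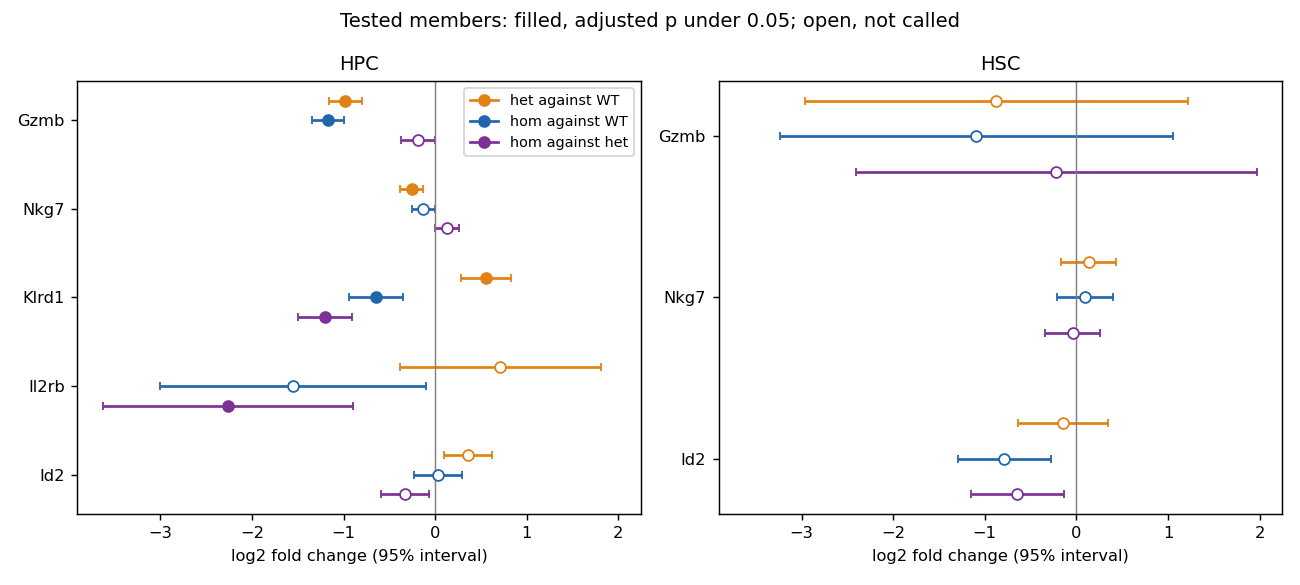
Log2 fold change with its 95% interval for each tested member in HPC (left) and HSC (right) in the 3 genotype comparisons; filled points passed an adjusted p of 0.05. In HPC both knockouts are left of 0 for Gzmb, Klrd1 lies right of 0 in het and left of 0 in hom, and no member is filled in HSC.

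In HSC, 3 of 9 members passed the filter (Gzmb, Nkg7 and Id2), and edgeR called 0 of them in hom against WT, where 2.01% of 14959 tested genes were called. It also called 0 in het against WT (0.0334% of tested genes) and 0 in hom against het (0.0134%). At an unadjusted p under 0.05, 1 of the 3 passed in hom against WT, 0 in het against WT and 1 in hom against het, each time Id2, beside 18.4%, 13.8% and 11.7% of all tested genes. DESeq2 called 1, 0 and 0. Median log2 changes over these 3 members were -0.79, -0.14 and -0.22.

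Id2 in HSC lay at 15.97, 27.84 and 19.78 CPM in WT, 18.74, 18.27 and 20.25 in het, and 8.36, 11.33 and 16.47 in hom. The third hom library lay inside the WT range and below all het libraries, so that hom overlapped WT and did not overlap het. The log2 change of hom against WT was -0.79 ± 0.232 (95% interval from -1.30 to -0.28, edgeR adjusted p = 0.104), and of hom against het -0.64 ± 0.232 (adjusted p = 0.306). With DESeq2 the first of these was called (adjusted p = 0.0125). Without the third hom library both were called by edgeR (-1.08, adjusted p = 0.00774, and -0.93, adjusted p = 0.0239).

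Gzmb in HSC was low and uneven: 51, 128 and 85 counts in WT, 46, 4 and 111 in het, and 41, 67 and 5 in hom. The low libraries were the second het and the third hom, at 0.18 and 0.24 CPM, and all groups overlapped. Hom against WT gave -1.09 ± 0.931 (95% interval from -3.23 to 1.05, edgeR adjusted p = 0.585), so that a fall as large as that in HPC could not be told from none at this spread. Without the filter on low counts it was called (-1.10 ± 0.304, adjusted p = 0.013). Without the second hom library the change was -1.67 (adjusted p = 0.59), and without the third, the low one, -0.58 (adjusted p = 0.767). Nkg7 in HSC was even, between 24.51 and 36.66 CPM over the 9 libraries, with a log2 change of 0.09 ± 0.142 in hom against WT (95% interval from -0.21 to 0.40, adjusted p = 0.78). Klrd1 had 11, 4 and 8 counts in HSC WT, 5, 0 and 2 in het, and 3, 4 and 2 in hom, too few for the test.

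Between WT HSC and WT HPC, 5 members were tested, 3 were lower and 1 higher in HSC, and 1 was not called, where 54.9% of 15431 tested genes were called. Gzmb was lower in HSC by a log2 difference of -5.54 ± 0.448 (2.15% of HPC, adjusted p = 3.08e-07), Klrd1 by -4.54 ± 0.313 (4.29% of HPC, adjusted p = 6.19e-11) and Nkg7 by -1.72 ± 0.112 (30.3% of HPC, adjusted p = 4.17e-11). Id2 was higher in HSC by 1.11 ± 0.198 (217% of HPC, adjusted p = 8.17e-05), and the difference of Il2rb was -1.20 ± 0.700 (adjusted p = 0.155). Klrd1 and Il2rb passed the low-count filter of this joint fit through HPC. Over all HSC libraries, 1 reached the cutoff of the HSC fit (0.46 CPM) for Klrd1 and 0 for Il2rb. The differences of these genes, here and in the interaction, are therefore given as descriptions. The effect of hom against WT was also compared between the sorts, as an interaction. It passed edgeR's test for 0 of 5 members (1 at an unadjusted p under 0.05, and 0 with DESeq2), where 2.79% of tested genes passed and 17.8% had an unadjusted p under 0.05. The nearest was Id2, whose log2 change was lower in HSC than in HPC by -0.84 ± 0.284 (adjusted p = 0.114; 0.00904 without the third HSC hom library). For Gzmb the difference between the effects was 0.06 ± 0.790, with a 95% interval from -1.66 to 1.77.

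Gzmb sits at one end of a cluster of granzyme and mast cell protease genes on chromosome 14, and the tested genes of the cluster in HPC did not move together. Gzmc, a neighbouring granzyme gene that starts 27.4 kb away, held 49, 30 and 27 counts in WT, 18, 13 and 15 in het, and 10, 16 and 13 in hom, and fell in hom (log2 -1.32 ± 0.346, adjusted p = 0.0196). In het its change was -0.94 ± 0.338 (adjusted p = 0.0664). Granzyme genes of this cluster are near copies of each other, so reads shared between them may have been left out of their counts. Ctsg, the cathepsin G gene of neutrophils 159 kb away, rose from 200.4, 197.6 and 181.0 CPM in WT to 332.6, 328.7 and 320.6 in hom (0.77 ± 0.058, adjusted p = 7.52e-08) and to 236.8, 246.5 and 229.0 in het (0.30 ± 0.059, adjusted p = 0.00155). Mcpt8, a basophil protease gene, was not called in hom by edgeR (0.36 ± 0.110, adjusted p = 0.0535), was called there by DESeq2 (adjusted p = 0.0257), and was not called in het (-0.03 ± 0.112, adjusted p = 0.893). Of the 50 genes that start within 500000 bases of Gzmb, Gzmb included, 18 were tested in HPC. In hom against WT 1 of them rose and 3 fell, the third of these being Sdr39u1 (-0.44 ± 0.109, adjusted p = 0.0141). In het against WT 4 rose and 2 fell. Over all tested genes, 9.21% were called in hom and 16.1% in het.

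**Figure D4:**
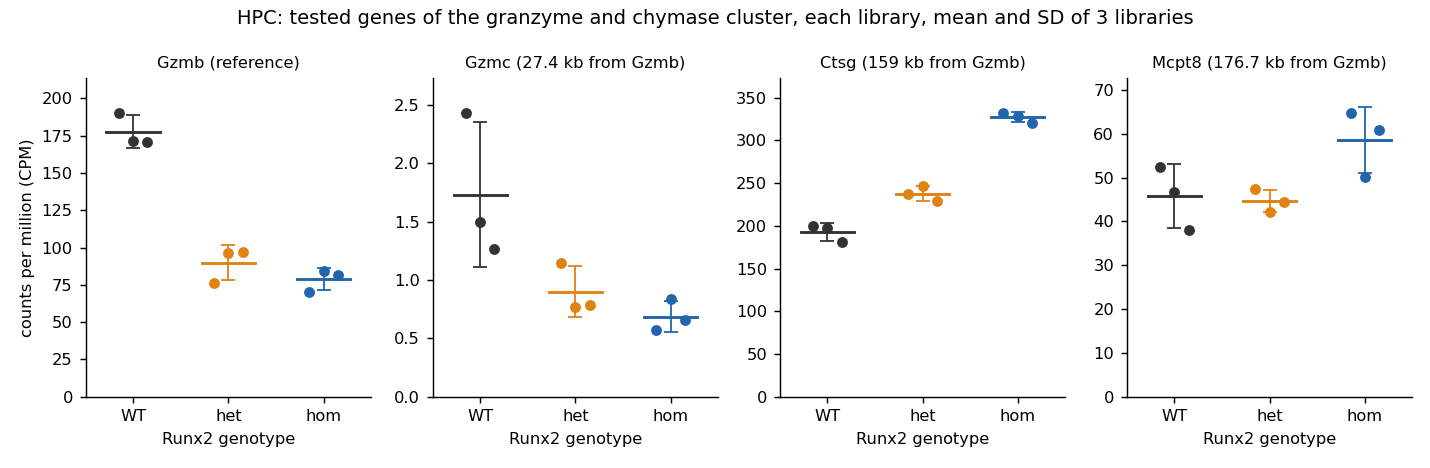
CPM in HPC of the 4 tested genes of the granzyme and chymase cluster by Runx2 genotype, with the distance of each start from that of Gzmb; points are libraries, and bars are the mean and SD of 3 libraries. Gzmb and Gzmc are lower in hom than in WT, and Ctsg rises from 181.0 to 200.4 CPM in WT to 320.6 to 332.6 CPM in hom.

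Most genes of the granule machinery around the granzymes were not called. Of 16 genes of granule maturation and release, all tested in HPC, 3 rose and 1 fell in hom against WT (9.21% of all tested genes were called there), and 5 rose in het (16.1%). Those that rose in hom were Cst7, the cystatin F gene (log2 0.36 ± 0.080, adjusted p = 0.00597), the SNARE gene Vamp7 (0.30 ± 0.069, adjusted p = 0.00931) and the lysosomal membrane gene Lamp1 (0.24 ± 0.065, adjusted p = 0.0213). The SNARE gene Vamp8 fell (-0.33 ± 0.097, adjusted p = 0.0482). Srgn, the proteoglycan that packs granules, was at 473 CPM in HPC WT and did not pass in hom (0.20 ± 0.063, adjusted p = 0.057). DESeq2 called 6 of the 16 in hom, adding Srgn (adjusted p = 0.0187) and Unc13d (0.0435). In HSC hom against WT, edgeR and DESeq2 each called 0 of the 16. In edgeR 7 of the 16 had an unadjusted p under 0.05, a larger share than the 18.4% of all tested genes. Of 10 granzyme inhibitor genes, 4 were tested in HPC and 0 were called in hom by edgeR or DESeq2 (0 at an unadjusted p under 0.05). In HPC hom against het 2 of them fell, where 9.4% of all tested genes were called. In HSC hom, 2 of 4 tested fell, Serpinb6b (-0.44 ± 0.092, adjusted p = 0.0262) and Serpinb6a (-0.47 ± 0.110, adjusted p = 0.0405), where 2.01% of all tested genes were called. Of the exon bases of Serpinb6a, 14% overlap other annotation.

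Among 27 killer lectin-like and other NK receptor genes, 9 were tested in HPC, and in hom against WT 4 rose and 2 fell, where 9.21% of all tested genes were called. Klri2, an NK receptor gene that lies in the same gene complex as Klrd1, held 1.19 to 2.20 CPM in WT, 1.53 to 2.01 in het and 0.31 to 0.60 in hom, and fell in hom (log2 -1.87 ± 0.379, adjusted p = 0.00305) but was not called in het (0.21 ± 0.312, adjusted p = 0.724). Its hom libraries held 6, 6 and 12 counts, so it passed the low-count filter mainly through WT and het, its higher groups. Klrb1c, the NK1.1 gene, rose from 0.40 to 0.50 CPM in WT to 1.30 to 1.71 in hom (1.81 ± 0.344, adjusted p = 0.0017) and 0.96 to 1.65 in het (1.61 ± 0.353, adjusted p = 0.00393). Its WT libraries held 10, 8 and 9 counts, close to the filter cutoff, so it passed mainly through the knockouts, its higher groups. The calls of Klri2 and Klrb1c are therefore given as descriptions. The count above holds Klrb1c among the 4 that rose and Klri2 among the 2 that fell, so it too is a description. Klrb1f, a relative of Klrb1c, rose in hom (0.73 ± 0.123, adjusted p = 0.00149) and het (0.79 ± 0.123, adjusted p = 0.000588). The adaptor gene Tyrobp, which signals for many receptors of myeloid and NK cells, rose in hom (0.52 ± 0.078, adjusted p = 0.000201), Fcer1g, another adaptor, rose too (0.26 ± 0.075, adjusted p = 0.031), and the receptor gene Cd244a fell (-0.46 ± 0.083, adjusted p = 0.00104). Genes of the Klr families are similar in sequence, so that their counts are uncertain where reads match several of them.

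Of 20 genes of the response to interleukins 2, 12, 15 and 18, all tested in HPC, 3 fell and 0 rose in hom against WT, 1 fell and 8 rose in het against WT, and 8 fell in hom against het. Over all tested genes, 9.21%, 16.1% and 9.4% were called in these comparisons. Il18r1, which encodes a chain of the interleukin-18 receptor, went from 10.8 to 11.8 CPM in WT to 6.67 to 7.60 in het and 1.56 to 2.67 in hom (hom against het, log2 -1.70 ± 0.174, adjusted p = 1.93e-05). Il18rap, its partner chain, fell in hom (-0.35 ± 0.057, adjusted p = 0.000385) and was not called in het (-0.02 ± 0.057, adjusted p = 0.835). Socs2, a feedback inhibitor of cytokine signalling, fell in hom (-0.24 ± 0.065, adjusted p = 0.0232), and Il2rg, the common gamma chain, was not called by edgeR (-0.18 ± 0.061, adjusted p = 0.0735) but was by DESeq2 (adjusted p = 0.0461).

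**Figure D5:**
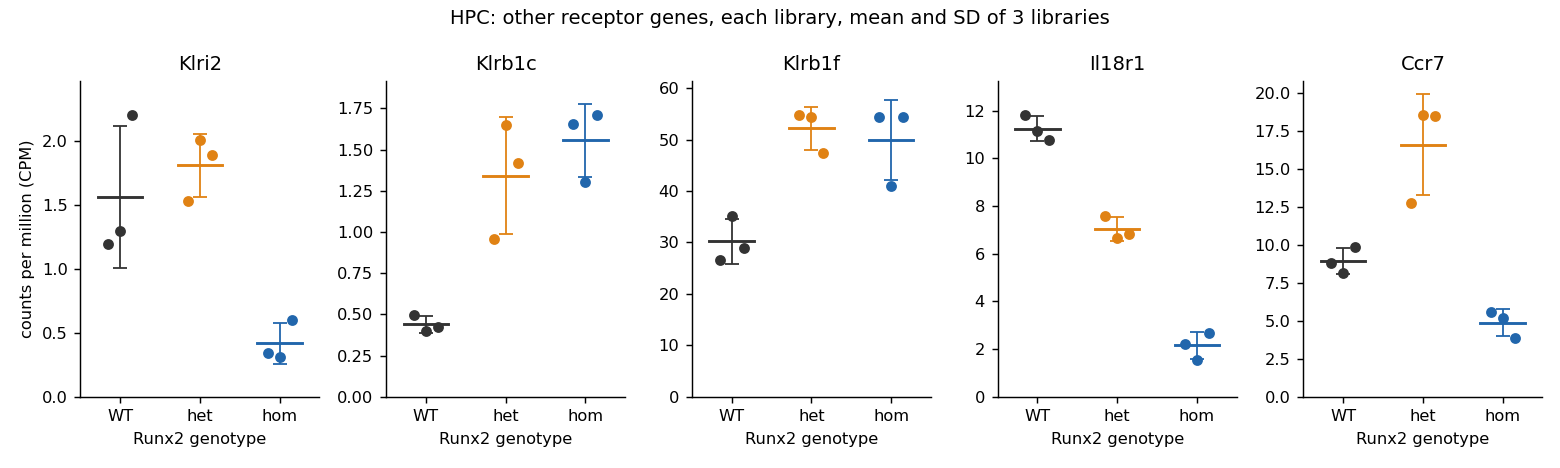
CPM in HPC of 5 further receptor genes by Runx2 genotype; points are libraries, and bars are the mean and SD of 3 libraries. Klri2 and Ccr7 are lowest in hom, Klrb1c and Klrb1f are higher in both knockouts than in WT, and Il18r1 falls from 10.8 to 11.8 CPM in WT to 1.56 to 2.67 CPM in hom.

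Of 25 transcription factor genes of innate lymphoid development, 20 were tested in HPC, and in hom against WT 3 rose and 5 fell, where 9.21% of all tested genes were called. Those that fell included Tcf7, the gene of TCF-1, which was not called in het (log2 -0.16 ± 0.169, adjusted p = 0.602), and Bhlhe40 (-0.39 ± 0.078, adjusted p = 0.00282). Those that rose were Zeb2, a repressor in NK and myeloid cells (0.62 ± 0.058, adjusted p = 8.39e-07), Irf8, a factor of monocytes and dendritic cells (0.72 ± 0.080, adjusted p = 8.19e-06), and Runx1, another RUNX gene (0.29 ± 0.061, adjusted p = 0.00421). DESeq2 called 8 of the 20 in hom against WT, among them also Tox, Gata3 and the RUNX gene Runx3. In HSC 21 of the list were tested, and 2 fell in hom against WT, where 2.01% of all tested genes were called. DESeq2 called Tox and Tcf7 there, and it called Tox in each genotype comparison of both sorts. In HSC het against WT and HSC hom against het, edgeR called 0 of the 21, so that Tox was called there by DESeq2 alone. Over all tested genes, edgeR called 0.0334% and 0.0134% in these comparisons. Of 6 genes of E proteins, the partners of Id2, and of other Id proteins, 4 were tested in HPC. In hom, 0 were called by edgeR or DESeq2 (0 at an unadjusted p under 0.05), and Tcf4 (0.32 ± 0.054, adjusted p = 0.000454) rose in het.

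Markers of other cell types were read in the same libraries. Of 12 NK cell markers apart from the members, 2 (Klra8 and Gzmk) had 0 counts in all 18 libraries, and Ncr1, which defines NK cells, had 0 counts in the 3 HPC WT libraries together, 6 in het and 1 in hom. Their summed level was 50.9 to 69.6 CPM in HPC WT, 118 in het and 71.2 to 98.8 in hom, most of it from the chemokine gene Ccl5 (52.8 CPM in HPC WT). The sum did not follow Gzmb, which was highest in WT. Of 12 T cell markers, Cd3e and Cd8b1 were at 0 in all 18 libraries, and the summed level was 65.8 to 73.3 CPM in HPC WT and 59.2 to 75.0 in hom. Of 9 innate lymphoid cell markers 0 were at 0 in all libraries, and their sum was 120 to 123 CPM in HPC WT, 123 to 125 in het and 129 to 168 in hom. The sum does not stand for each marker. Of 5 tested in HPC, 1 rose and 1 fell in hom against WT, and 2 rose in het. Over all tested genes, 9.21% and 16.1% were called. Called in hom were Gata3 and Il1rl1, and Il1rl1 is also among the mast cell and basophil markers.

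Myeloid markers were mostly higher in the HPC knockouts. Of 12 neutrophil and monocyte markers, 11 rose in hom and 8 in het and 0 fell (9.21% and 16.1% of all tested genes were called). Their summed level was 1890 to 2000 CPM in WT, 2510 to 2950 in het and 3160 to 3410 in hom, opposite to Gzmb. The sum of 16 mast cell and basophil markers was 205 to 235 CPM in WT, 222 to 234 in het and 321 to 362 in hom, also not in the direction of Gzmb (4 of the 16, among them Tpsab1 and Mcpt2, were at 0 in all 18 libraries). The sum of 10 megakaryocyte markers was 665 to 733 CPM in WT, 407 to 512 in het and 462 to 648 in hom, below WT in every knockout library. Of these 10, 4 fell in het (median log2 change -0.947) but 2 fell in hom, where 8 were not called and the median was 0.00315. The part of these cell types in the changes of Gzmb and Klrd1 was not tested.

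Genes with the pattern most like each member over the 18 libraries were found by Pearson correlation of log2 CPM, after the mean of each sort was subtracted, among the genes with a group mean of at least 5 CPM. The correlations are descriptions over libraries that share genotype groups. For Gzmb the closest were Gfi1b, a repressor gene of erythroid and megakaryocytic cells (r = 0.843), Nrep (0.840) and the adhesion gene Cadm3 (0.833). Among HSC libraries, the second het and the third hom, lowest in Gzmb, were also lowest in each of these genes, so r rests partly on them. In HPC, Gfi1b fell in hom (log2 -0.42 ± 0.084, adjusted p = 0.00263) but was not called in het (-0.12 ± 0.083, adjusted p = 0.366). Nrep was called in neither (adjusted p = 0.116 in hom and 0.104 in het). Cadm3 also lay lower in the HPC knockouts, at 9.97 to 11.5 CPM in WT, 4.09 to 5.78 in het and 3.48 to 5.08 in hom, with r = 0.986 over the HPC libraries alone. For Klrd1 the closest was Ccr7, a chemokine receptor of lymphocytes and dendritic cells (r = 0.824), followed by Tes and Egln3. Ccr7 had the same order in HPC, at 8.17 to 9.89 CPM in WT, 12.8 to 18.6 in het and 3.87 to 5.59 in hom, with calls in het (log2 0.89 ± 0.148, adjusted p = 0.000365) and in hom (-0.88 ± 0.165, adjusted p = 0.00162). For Id2 the closest were Ccng1 (r = 0.908), Dram2 and Aph1b, and for Nkg7 Ndufv1 (r = 0.874), Cpsf4 and Gadd45gip1.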

How the data were processed

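Poly(A) RNA-seq libraries of 6 groups of 3 were read from the deposited counts, which per the file headers are whole read pairs per gene, counted by the authors with featureCounts 2.0.6 without strand over the exons of an mm10 RefSeq annotation. Multi-mapping read pairs were not counted, per the file headers. The deposited gene length in bases was used to compute TPM. Per the submitters' processing notes, Trim Galore 0.6.10 and STAR 2.7.11a were used, and the build named there is mm39. Gene starts in the tables match GRCm38 for Gzmb, Nkg7 and Id2, and coordinates are given as in the tables. CUT&Tag samples are not analysed here.

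Groups follow the genotype and sort labels. HSC and HPC were fitted apart, each with its 3 genotypes, by edgeR 4.0.16 in R 4.3.3 (TMM factors, filterByExpr, glmQLFit and glmQLFTest). P-values were adjusted by Benjamini-Hochberg over all tested genes and called under 0.05, and each adjusted p is edgeR's unless another tool is named. All 18 libraries were fitted together for HSC against HPC and the interaction. CPM used TMM factors over the 18 libraries. The fit was tested on simulated data. Alternatives were DESeq2 1.42.0, RLE factors, other filters, a replicate block, fits of the compared groups alone and leaving out each library. No libraries of a group agreed within sampling noise. The members and lists were chosen with earlier results of these data known. Named were all members, Runx2, up to 6 genes of each list called in hom against WT (lowest p first) and otherwise up to 3 of highest mean, the 3 genes most like each member with a group mean of at least 5 CPM, and called genes near Gzmb. Figures were drawn with matplotlib 3.10.9.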

Additional observations from a re-analysis of the deposited data

How the results depend on the processing

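Of 425 recomputed member values, 409 kept their side of the threshold, 6 lost a call, 10 gained one and 0 changed sign with a call on either side. A change of sign without a call was counted as kept, as for Gzmb in HSC hom against het (log2 from -0.79 to 0.93). Over 12 alternatives the log2 change of Gzmb in HPC ran from -1.23 to -1.10 in hom and from -1.05 to -0.88 in het with each call kept, and the fall of Klrd1 in hom was kept in 12 of 12. In HSC hom against WT, without a filter on low counts Gzmb (adjusted p = 0.013) and Id2 (2.29e-06) were called, and 2 members were called there, 1 in hom against het and 1 in the interaction. In HPC hom against het, members called dropped from 2 to 1 with DESeq2, with a filter of at least 1 CPM in 3 libraries and with only the groups compared, each time because Il2rb had no adjusted p. Numbers of genes called moved most in HSC: hom against WT had 748 with DESeq2, 898 without the filter and 155 with only the groups compared. For het against WT these were 192, 399 and 299, for hom against het 149, 511 and 1, and for the interaction 854 with DESeq2 and 738 without the filter. Leaving out 1 library at a time gave 48 to 638 genes and 0 to 1 members in HSC hom against WT, 2 to 7 genes in het against WT, and 1 to 408 genes and 0 to 1 members in hom against het. The highest values came without the third hom library (638 and 408), which had 0.24 CPM of Gzmb, and the lowest in hom against WT without the second WT library. In HPC hom against het it gave 701 to 1179 genes and 1 to 2 members, and in the interaction 149 to 941 genes and 0 to 1 members. The cause was not tested.

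No comparison had a correlation over 0.1 for every pair of same-numbered libraries, so the numbers were not taken as pairs. With the replicate block, HSC hom against WT had 189 genes called (same-number correlations 0.22, 0.071 and 0.194, each library closest to its own number, a hint from the data), and Id2 passed in HPC het against WT (adjusted p = 0.0411). Low counts limit Prf1, Tbx21 and Eomes in both sorts, and Klrd1 and Il2rb in HSC. Gzma was at 0 in all 18 libraries, as was the sort marker Ly6a, and whether depth sets these zeros was not tested.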

Other observations

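Among 16 genes of cytokines, chemokines and death ligands of cytotoxic lymphocytes, 6 were tested in HPC, and 1 rose and 1 fell in hom against WT, while 3 rose and 1 fell in het, where 9.21% and 16.1% of all tested genes were called. Ltb, which encodes lymphotoxin beta, fell in hom (log2 -0.74 ± 0.080, edgeR adjusted p = 6.62e-06) and was not called in het (-0.12 ± 0.079, adjusted p = 0.342). The chemokine gene Ccl3 rose more in het (1.07 ± 0.087, adjusted p = 1.61e-07) than in hom (0.55 ± 0.088, adjusted p = 0.000342), and hom against het gave -0.52 ± 0.085 (adjusted p = 0.000726). Ccl5, a chemokine of NK and T cells, rose in het (1.07 ± 0.151, adjusted p = 0.00115) and did not pass in hom with edgeR (0.54 ± 0.152, adjusted p = 0.0604) but did with DESeq2 (adjusted p = 0.0494).

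Il2ra, the alpha chain that joins Il2rb in the high-affinity interleukin-2 receptor and that was named here after its values were seen, rose in HPC het (1.07 ± 0.214, adjusted p = 0.00192), and hom against het was -0.72. The summed level of 10 plasmacytoid dendritic cell markers was 532 to 604 CPM in HPC WT, 678 to 710 in het and 595 to 642 in hom. The sum does not stand for each marker. Of 8 tested, 1 rose and 3 fell in hom against WT (median log2 change -0.306), and 3 rose and 1 fell in het. Over all tested genes, 9.21% and 16.1% were called. The sum of 9 B cell markers, of which 1 was tested in HPC, was 12.4 to 15.5, 17.5 to 21.2 and 14.3 to 16.3 CPM in WT, het and hom.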
